A study of Mus musculus with 12 samples.

Results

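Chemokines are small secreted proteins that direct the movement of white blood cells through tissue, and 10 chemokine ligand genes were followed here over the estrous cycle of the mouse uterus. They are Cxcl1, Cxcl2, Cxcl5, Cxcl12, Cxcl14, Cxcl15, Cxcl16, Ccl2, Ccl7 and Ccl11. They were chosen by name, with earlier results of these data known, and taken out of 35896 genes to which counts could be summed. All 10 had counts in at least 1 library, and 8 of them passed the filter on low counts that left 12052 genes for testing. Ccl2 and Ccl7 did not pass it and are given by their counts.

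The samples were whole uteri of female wild type Swiss Webster mice, an outbred stock, aged 8 to 12 weeks, with no treatment or transgene named in the labels. There were 3 uteri in each of the 4 stages, proestrus (replicates 1, 2 and 3), estrus (3, 4 and 5), metestrus (5, 6 and 7) and diestrus (3, 4 and 5). Polyadenylated RNA was read near the 3' ends of transcripts (3' TagSeq). How a stage was assigned was not given in the sources used here.

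In the cycle, estrogen is high around proestrus, ovulation falls near estrus, and progesterone acts in metestrus and diestrus. A chemokine ligand binds receptors on passing leukocytes: the CXC ligands with a Glu-Leu-Arg motif before their first cysteines (Cxcl1, Cxcl2, Cxcl5 and Cxcl15 among the genes here) attract neutrophils, mostly through Cxcr2, and CC ligands act mainly on monocytes, eosinophils and lymphocytes. In the uterus, neutrophils, macrophages and eosinophils are known to come and go with the cycle.

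The libraries held between 1652841 and 2200563 estimated counts. Levels are in CPM, counts scaled to a common library total over the tested genes after TMM scaling, and a library with 0 counts of a gene could still hide up to 3, which stood for 1.37 to 1.89 CPM depending on the library. A gene is called different where the edgeR quasi-likelihood test gave a Benjamini-Hochberg adjusted p under 0.05 over all 12052 genes, and every adjusted p below is of that kind. Correlations of log2 CPM within a stage ran from 0.897 to 0.957, the lowest being in metestrus. Markers of the labelled tissue were present in every library: Esr1, Pgr, Hoxa10, Hoxa11 and Hand2 summed to between 474.5 and 1057 CPM, against at most 6.85 CPM for 5 ovary markers and at most 2.85 CPM for 5 squamous epithelium markers. The 4 oviduct markers summed to 44.9 to 58.1 CPM in estrus and 10.4 to 31.4 elsewhere. Ovgp1, the most abundant and not itself a marker of ciliated cells, rose from 14.5 ± 5.57 CPM in proestrus to 44.8 ± 4.58 in estrus (adjusted p = 0.0322). Ccdc39, the next, averaged 3.97, 4.77, 2.28 and 5.45 CPM from proestrus to diestrus. It was not called over the stages (F test adjusted p = 0.306). Foxj1, the defining factor of ciliated cells, averaged at most 1.04 CPM in any stage.

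4 of the genes lie in 1 stretch of chromosome 5 (GRCm38), in the order Cxcl5, Cxcl15, Cxcl1, Cxcl2. Cxcl5 and Cxcl15 are 32909 bases apart with Ppbp, Pf4 and Cxcl3 between them. Cxcl15 and Cxcl1 are 88173 bases apart and Cxcl1 and Cxcl2 are 10755 bases apart, with no other protein-coding gene between either pair. Within this stretch Cxcl1, Cxcl2 and Cxcl5 were highest in estrus and Cxcl15 was highest in diestrus. Ccl2, Ccl7 and Ccl11 lie side by side on chromosome 11, separated by 8258 and 10297 bases. RefSeq promoter entries (GRCm38.p6) were at hand for 5 of the 10 genes, and the 250 bases before the start are shown for the 3 of them that share the chromosome 5 stretch and differ in stage. Capitals mark a match to the kappaB motif, the binding motif of the NF-kappaB factors that carry inflammatory signals to DNA.
Cxcl1, chr5:90890995-90891244, plus strand: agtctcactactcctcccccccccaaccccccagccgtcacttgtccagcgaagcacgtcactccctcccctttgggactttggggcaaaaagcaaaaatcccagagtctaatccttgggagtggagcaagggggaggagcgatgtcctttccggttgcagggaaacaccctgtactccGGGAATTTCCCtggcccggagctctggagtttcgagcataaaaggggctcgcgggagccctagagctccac
Cxcl2, chr5:90903649-90903898, plus strand: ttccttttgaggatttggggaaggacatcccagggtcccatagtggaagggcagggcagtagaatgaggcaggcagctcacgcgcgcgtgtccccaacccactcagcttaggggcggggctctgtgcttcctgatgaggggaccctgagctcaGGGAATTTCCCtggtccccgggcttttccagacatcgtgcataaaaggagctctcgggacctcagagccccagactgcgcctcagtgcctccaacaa
Cxcl15, chr5:90794284-90794533, plus strand: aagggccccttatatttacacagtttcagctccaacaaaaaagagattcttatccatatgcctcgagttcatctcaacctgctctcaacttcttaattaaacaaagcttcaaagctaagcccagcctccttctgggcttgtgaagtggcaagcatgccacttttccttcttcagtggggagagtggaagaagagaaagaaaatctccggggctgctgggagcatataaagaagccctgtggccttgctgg
Cxcl1 and Cxcl2 held the same run of 11 bases, in which the motif reads on both strands with the 2 matches offset by 1 base, beginning 71 bases before the start in Cxcl1 and 97 bases before it in Cxcl2. No match lay in the windows of Cxcl12, Cxcl14 or Cxcl15. Cxcl5 and Cxcl16, also highest in estrus, had no entry and were not searched, and nor were Ccl2, Ccl7 and Ccl11. Whether the motif goes with the estrus level therefore cannot be read from these windows. Over windows running from 250 bases before to 50 after the start, 1480 of 32851 RefSeq promoters (4.51%) held a kappaB match on either strand. The estrogen response element GGTCANNNTGACC was in 23 of them (0.07%) and in none of the 5 windows here. A match describes letters only, and binding was not measured.

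Over the 4 stages, 7 of the 8 tested genes were called in the F test, and Cxcl14 was not, where 23.2% of all tested genes were called. Of those called, Cxcl1, Cxcl2, Cxcl5 and Cxcl15 passed the low-count filter only through the stage where they were high. The genes were also chosen with earlier results of these data known, so the count of calls is a description. Cxcl1, Cxcl2, Cxcl5 and Cxcl16 were highest in estrus, Cxcl12 and Cxcl15 in diestrus, and Ccl11 in proestrus. In whole tissue, fewer cells of a type and less RNA per cell cannot be told apart, and this holds for each level below.

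**Figure D1:**
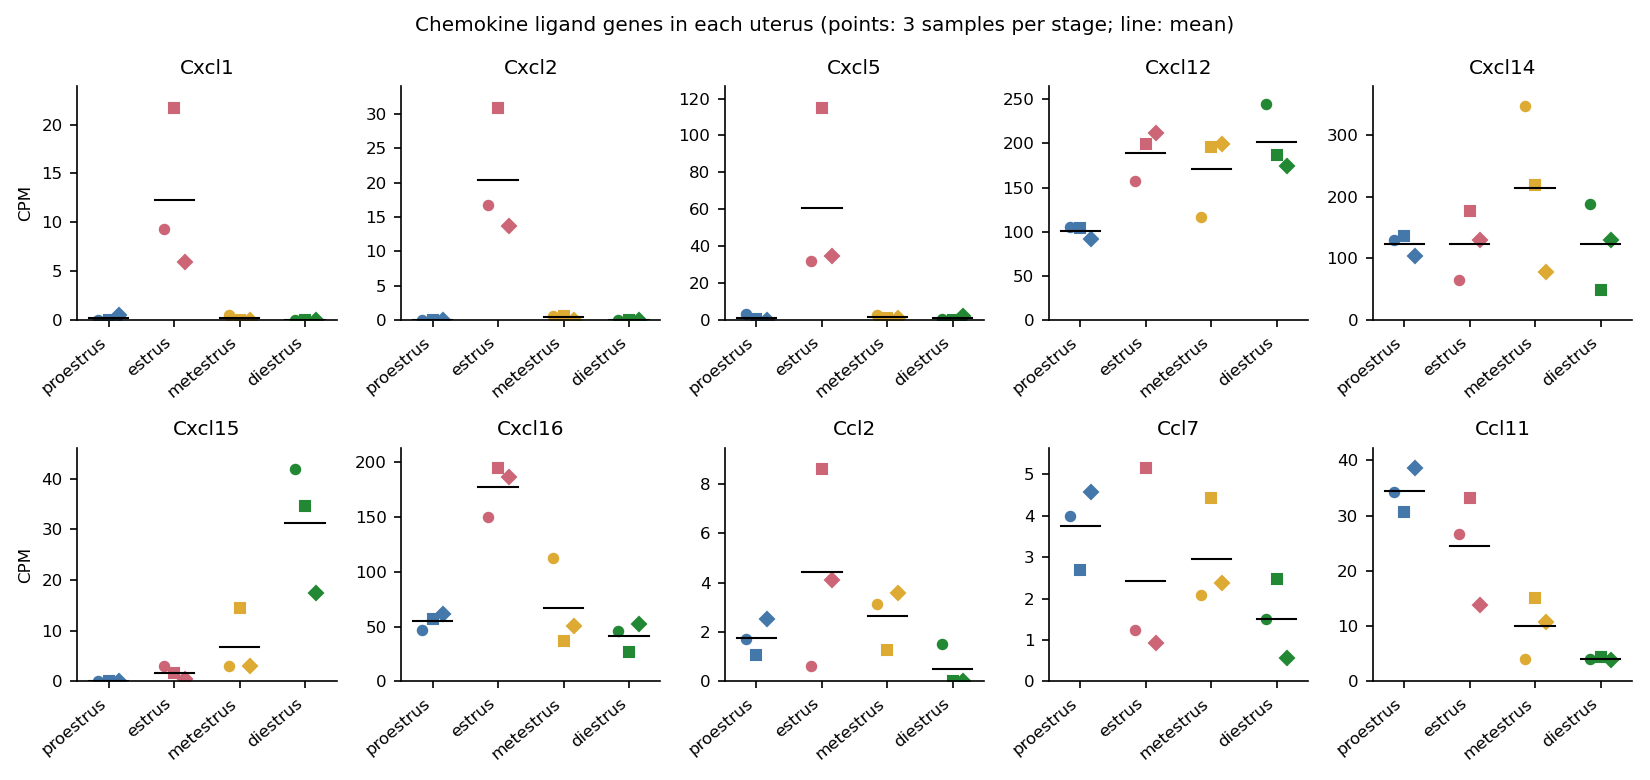
Level of each of the 10 genes in each uterus, in CPM on a linear axis that starts at 0 and differs between panels. Each point is 1 uterus (circle, square and diamond in the order of the replicate numbers), and the line is the mean of 3. In the panels of Cxcl1, Cxcl2, Cxcl5 and Cxcl16 the 3 estrus points lie above every other point, and in that of Cxcl15 the 3 diestrus points do.

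Cxcl1 (ENSMUSG00000029380, chromosome 5, 90891241 to 90893115, plus strand), a neutrophil attractant made by epithelium and stroma on inflammatory signals, was found almost only in estrus. Its level was 9.28, 21.7 and 5.95 CPM in the estrus uteri, 0, 0 and 0.508 in proestrus, 0.519, 0 and 0 in metestrus and 0 in all 3 of diestrus. These are 15, 38 and 13 counts in estrus against 1 count in all of proestrus and 1 in all of metestrus, so that the groups do not overlap. The ratio of estrus to proestrus was 66.4 with a counting interval of 11.5 to 2660 (exact conditional binomial, 95%). Such an interval pools the counts of a stage and leaves out the spread between uteri. The fitted log2 fold change was 5.64 ± 0.94 (SE, adjusted p = 0.0028). Against metestrus the ratio was 61.7 (10.7 to 2470), with a fitted fall from estrus of -5.57 ± 0.95 (adjusted p = 0.00598). In diestrus the gene was at least 7.90-fold lower than in estrus, taking 3 counts per library as the floor (adjusted p = 0.00093). The mean in estrus was 12.3 ± 8.32 CPM (SD, n = 3) and 7.62 CPM without estrus replicate 4. Without that uterus the fitted changes were 4.92 from proestrus and -4.84 to metestrus, and the calls held, diestrus included. They also held without proestrus replicate 3 (adjusted p = 0.0162) and without metestrus replicate 5 (0.00956), the libraries with the single counts, when the remaining libraries of that stage were at 0.

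Cxcl2 (ENSMUSG00000058427, chromosome 5, 90903871 to 90905938, plus strand), the close relative of Cxcl1 that acts on the same receptor, had the same stage pattern. It stood at 16.7, 30.9 and 13.7 CPM in estrus, at 0 in every proestrus and diestrus uterus, and at 0.519, 0.631 and 0 CPM in metestrus. Every estrus uterus was far above every other one, with estrus replicate 4 the highest as for Cxcl1. The estrus mean of 20.4 ± 9.17 CPM (SD, n = 3) was at least 12.6-fold above proestrus (adjusted p = 0.000799) and at least 13.1-fold above diestrus (adjusted p = 0.000337). Metestrus, with 2 counts in all, was lower than estrus by a ratio of 51.9 (counting interval 14.0 to 434, fitted log2 fold change -5.50 ± 0.71, adjusted p = 0.00224). Of its 31-base words, 7.59% also occur in Cxcl3, which was listed at 0 in all 12 libraries.

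Cxcl5 (ENSMUSG00000029371, chromosome 5, 90759360 to 90761624, plus strand), another neutrophil attractant, typical of epithelium, rose and fell at the same stages. The estrus uteri held 32.2, 115.0 and 34.8 CPM. Proestrus held 3.42, 0.539 and 0, metestrus 2.59, 1.26 and 1.19, and diestrus 0.499, 0 and 2.26 CPM. No uterus outside estrus came near the lowest in estrus. The estrus mean of 60.6 ± 47.1 CPM (SD, n = 3) was 45.9-fold that of proestrus at 1.32 ± 1.84 CPM (log2 fold change 5.51 ± 0.77, adjusted p = 0.000683). The level fell to 1.68 ± 0.789 CPM in metestrus (-5.08 ± 0.74, adjusted p = 0.00146), and diestrus at 0.921 ± 1.19 CPM was 65.8-fold below estrus (-6.02 ± 0.81, adjusted p = 0.000233).

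The size of the Cxcl5 difference depended on single uteri while its calls did not. Estrus replicate 4 held most of the estrus sum, and the estrus mean without it was 33.5 CPM. Without that uterus the log2 fold changes were 4.62 from proestrus, -4.19 to metestrus and -5.12 to diestrus. The rise from proestrus was 7.52 without proestrus replicate 1, with 1 count left in the stage, and 4.91 without proestrus replicate 3. Diestrus against estrus was -5.41 without diestrus replicate 4 and -7.58 without diestrus replicate 5, again with 1 count left. Of the Cxcl5 counts, 54.17% were assigned to a transcript annotated as a retained intron (Cxcl5-202), which accounts for all of the proestrus level. The protein-coding transcript Cxcl5-201 was at 0 in the 3 proestrus uteri and at 24.6, 42.2 and 18.2 CPM in estrus. With protein-coding transcripts only, a choice made after seeing the data, Cxcl5 stayed called, at least 17.6-fold higher in estrus than in proestrus (3 counts per library as the floor) and changed by -5.96 to metestrus and -4.92 to diestrus.

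Cxcl15 (ENSMUSG00000029375, chromosome 5, 90794534 to 90803067, plus strand), also called lungkine and known from lung epithelium, ran the other way. It was at 0 in the 3 proestrus uteri, at 3.09, 1.72 and 0.458 CPM in estrus, at 3.11, 14.5 and 2.98 in metestrus and at 41.9, 34.6 and 17.6 in diestrus. The diestrus uteri lay above all others. Only the proestrus uteri were at 0, but estrus replicates 4 and 5 had 3 and 1 counts, which cannot be told from 0 at this depth. The diestrus mean of 31.3 ± 12.5 CPM was 17.9-fold that of estrus at 1.76 ± 1.32 CPM (log2 fold change 4.20 ± 0.69, adjusted p = 0.00149, 4.85 without estrus replicate 3). Proestrus was at least 19.4-fold below diestrus (adjusted p = 0.000917). All Cxcl15 counts were on 1 protein-coding transcript.

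The middle of the Cxcl15 order was less sure. Metestrus, at 6.87 ± 6.62 CPM, was at least 4.25-fold above proestrus (adjusted p = 0.032). That call was lost without any 1 of the 3 proestrus uteri or estrus replicate 4 (adjusted p between 0.0512 and 0.0975) and with counts scaled from TPM (0.0915). Neither estrus against proestrus (adjusted p = 0.12) nor metestrus against estrus (1.98 on the log2 scale, adjusted p = 0.163) was called. The first of these was called in DESeq2 (0.0276), without the low-count filter (0.043) and without metestrus replicate 6 (0.0499). Diestrus was 2.22 ± 0.57 above metestrus on the log2 scale and was not called (adjusted p = 0.15), but it was in DESeq2 (0.0446) and without the filter (0.00419). Metestrus replicate 6 was the high one of its stage, and without it the metestrus mean was 3.05 CPM and the step to diestrus 3.34 (adjusted p = 0.0185).

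Gland and epithelium markers moved with stage beside Cxcl15. Of 5 gland markers, the most abundant being Sox17 and Prss29, Foxa2 and Sox17 were tested and both were highest in diestrus, Sox17 at 103.9 ± 9.77 CPM against 34.4 ± 3.29 in estrus. Prss28, Prss29 and Lif were not tested and were not highest in diestrus. Lif was at 6.28 ± 2.06 CPM in estrus and 1.37 ± 1.01 in diestrus. Prss28 was at 0 and Prss29 at 0.331 ± 0.287 CPM in diestrus, so most of the diestrus level of the list was Sox17. The summed gland markers were 101.9 to 129.0 CPM in diestrus, 43.5 to 48.3 in estrus, 48.5 to 55.9 in proestrus and 61.2 to 422.7 in metestrus, where Prss28 and Prss29 in replicate 7 made up most of the top value. All 5 epithelium markers, led in level by Epcam and Krt8, were called lower in diestrus than in estrus, where 22.8% of all tested genes were called in either direction. The epithelium markers summed to 454.8 to 639 CPM in diestrus and 1119 to 1412 in estrus. The part of gland and epithelium markers in the level of Cxcl15 was not tested.

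Cxcl16 (ENSMUSG00000018920, chromosome 11, 70453983 to 70459984, minus strand), a membrane-bound ligand of Cxcr6 that also acts as a scavenger receptor and is shed by Adam10, was detected in every uterus and highest in estrus. The estrus uteri stood at 150.3, 195 and 186.9 CPM. Proestrus gave 46.8, 56.6 and 61.9, metestrus 112.5, 37.2 and 50.7, and diestrus 46.4, 26.7 and 52.1 CPM. The estrus mean of 177.4 ± 23.8 CPM was 3.22-fold that of proestrus at 55.1 ± 7.68 (log2 fold change 1.69 ± 0.33, adjusted p = 0.00429). Diestrus at 41.7 ± 13.3 CPM lay 2.09 ± 0.33 below estrus on the log2 scale (adjusted p = 0.000771). The other 3 stages were not separated from each other.

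The fall of Cxcl16 from estrus to metestrus (-1.40 ± 0.32, adjusted p = 0.0206) rested on few uteri. Metestrus had a mean of 66.8 ± 40.2 CPM, and 44.0 CPM without replicate 5, when the change was -2.01 (adjusted p = 0.000323). The call was lost without estrus replicate 4 (0.0746) or 5 (0.0749) and without metestrus replicate 6 (0.068) or 7 (0.0541). It was also lost with counts scaled from TPM (0.069) and in a fit of the 2 stages alone (0.0784). The transcript annotated for nonsense-mediated decay, Cxcl16-202, took 80.29% of the counts and the protein-coding Cxcl16-201 took 19.71%. Each was highest in estrus, Cxcl16-201 at 38.1 ± 9.25 CPM against 8.67 ± 5.01 in proestrus. Cxcl16 shares 18.5% of its 31-base words with Zmynd15, which overlaps it head to head on the opposite strand and held 57 counts in all libraries together. Without knowledge of strand, reads of the overlap cannot be told apart. The overlap holds the start of Cxcl16-201, while Cxcl16-202 (70454238 to 70459408) lies outside Zmynd15, which begins at 70459433.

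Cxcl12 (ENSMUSG00000061353, chromosome 6, 117168535 to 117181367, plus strand), the ligand of Cxcr4 that stromal cells make and that holds blood-forming and immune cells in place, was lowest in proestrus. The proestrus uteri lay at 105, 104 and 91.9 CPM. Estrus gave 157.1, 199 and 211.6, metestrus 117.2, 196.3 and 199.1, and diestrus 244.8, 186.4 and 174.3 CPM. All 9 later-stage uteri were above the 3 of proestrus, and the later stages overlapped each other. The estrus mean of 189.3 ± 28.5 CPM exceeded the proestrus mean of 100.3 ± 7.31 by 0.92 ± 0.20 on the log2 scale (adjusted p = 0.00874). Proestrus lay 1.01 ± 0.20 below diestrus at 201.8 ± 37.7 CPM by the same measure (adjusted p = 0.00778). Metestrus at 170.9 ± 46.5 CPM was close to the threshold against proestrus (0.77 ± 0.21, adjusted p = 0.0512). It passed with DESeq2's size factors in edgeR (0.0498), in DESeq2 (0.0168), without the low-count filter (0.0119) and without metestrus replicate 5 (0.00906). Diestrus was not called against estrus (0.09 ± 0.20, adjusted p = 0.785). The F test over stages (adjusted p = 0.0111) was not passed without proestrus replicate 3 (0.0607).

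Which transcripts were counted changed the Cxcl12 order. Of its counts, 58.67% were assigned to the retained-intron transcript Cxcl12-204, 27.73% to Cxcl12-202, 9.725% to Cxcl12-203 and 3.878% to Cxcl12-201. The retained-intron transcript made up 67.5% to 77.0% of the gene in the estrus uteri and 46.3% to 50.1% in those of diestrus, ranges that do not overlap. With protein-coding transcripts only, a choice made after seeing the data, the level was 54.6, 45.6 and 29.6 CPM in proestrus, 43.5, 45.9 and 68.7 in estrus, 55.3, 97 and 66.3 in metestrus and 132, 93 and 87 in diestrus. On that count the rise from proestrus to estrus was 0.27 and not called (adjusted p = 0.566). Diestrus was above estrus by 0.98 (adjusted p = 0.0209), and proestrus stayed below diestrus by 1.25 (-1.25, adjusted p = 0.0136). The split between transcripts is the authors' estimate from reads near 3' ends, and its accuracy was not tested.

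**Figure D2:**
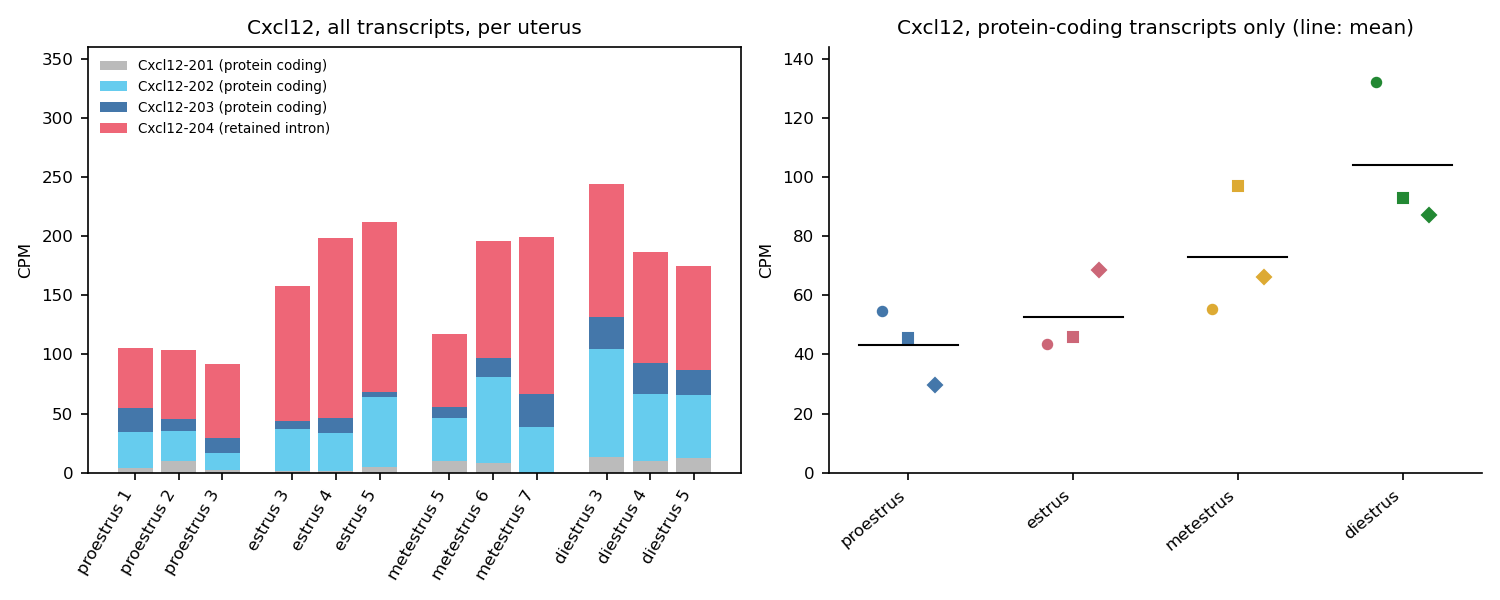
Left, Cxcl12 in each uterus as stacked bars of its 4 transcripts (CPM, axis from 0). Right, the sum of the 3 protein-coding transcripts, with 1 point per uterus and a line at the mean of 3 per stage: the protein-coding means run 43.2, 52.7, 72.9 and 104 CPM from proestrus to diestrus, while the red retained-intron part is largest in estrus.

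Cxcl14 (ENSMUSG00000021508, chromosome 13, 56288643 to 56296551, minus strand), a ligand of epithelia and stroma whose receptor is not settled, varied more within stages than between them. Proestrus uteri held 130.1, 135.8 and 104.5 CPM, estrus 65.0, 177.3 and 130.1, metestrus 347, 219.7 and 77.5, and diestrus 188, 49.4 and 130.2. The stage means were 123.5 ± 16.7, 124.1 ± 56.4, 214.7 ± 134.8 and 122.5 ± 69.6 CPM (SD, n = 3), and no order of stages was separable. The F test gave an adjusted p of 0.429, and none of the 6 contrasts was called. Metestrus replicate 5 held the highest value and diestrus replicate 4 the lowest.

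Ccl11 (ENSMUSG00000020676, chromosome 11, 82057823 to 82062955, plus strand) encodes eotaxin, which attracts eosinophils through Ccr3, and it fell through the cycle. Its level was 34.2, 30.7 and 38.6 CPM in proestrus, 26.6, 33.2 and 13.7 in estrus, 4.15, 15.2 and 10.7 in metestrus and 3.99, 4.45 and 3.96 in diestrus. Proestrus and diestrus were tight and far apart, and the stages between overlapped their neighbours. The proestrus mean of 34.5 ± 3.93 CPM was 8.35-fold that of diestrus at 4.13 ± 0.274 (log2 fold change 3.04 ± 0.42, adjusted p = 0.000738). Diestrus was 5.93-fold below estrus at 24.5 ± 9.89 CPM (-2.53 ± 0.43, adjusted p = 0.00113). Metestrus at 10.01 ± 5.54 CPM was below proestrus (-1.81 ± 0.37, adjusted p = 0.0193), a call lost without proestrus replicate 1 (0.054), 2 (0.0627) or 3 (0.0789) and in a fit of the 2 stages alone (0.0726).

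Neighbouring stages of the Ccl11 order were not separated. Estrus against proestrus gave -0.51 ± 0.34 (adjusted p = 0.334), metestrus against estrus -1.30 ± 0.38 (0.0565) and diestrus against metestrus -1.23 ± 0.48 (0.338). Metestrus against estrus was called without estrus replicate 5 (adjusted p = 0.0353) and without metestrus replicate 6 (0.0433). It was called as well with unscaled library totals (0.049), in DESeq2 (0.0399) and without the low-count filter (0.0166).

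Ccl2 (ENSMUSG00000035385, chromosome 11, 82035571 to 82037453), the main attractant of monocytes through Ccr2, had 52 counts over the 12 libraries. They were 3, 2 and 5 in proestrus, 1, 15 and 9 in estrus, 6, 2 and 6 in metestrus and 3, 0 and 0 in diestrus. The stages overlapped, and the means were 1.78 ± 0.732, 4.44 ± 3.99, 2.65 ± 1.22 and 0.499 ± 0.864 CPM (SD, n = 3), near the level of 3 counts. Ccl7 (ENSMUSG00000035373, chromosome 11, 82045712 to 82047525), which attracts monocytes and eosinophils through Ccr1, Ccr2 and Ccr3, had 58 counts. They were 7, 5 and 9 in proestrus, 2, 9 and 2 in estrus, 4, 7 and 4 in metestrus and 3, 5 and 1 in diestrus. In a fit without the low-count filter, over 20686 genes, neither was called (F test adjusted p = 0.148 for Ccl2 and 0.7 for Ccl7). In Ccl7 the lowest proestrus and the highest diestrus uterus each had 5 counts.

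Set side by side, the contrasts show where the ligands moved. Between proestrus and estrus, Cxcl1, Cxcl2, Cxcl5, Cxcl12 and Cxcl16 rose and none fell, 5 of 8 tested where 9.67% of all tested genes were called higher. Cxcl1, Cxcl2 and Cxcl5 passed the low-count filter only through their estrus libraries and Cxcl15 only through those of diestrus, so being tested already required a high stage, and the counts of calls are a description. From estrus to metestrus, Cxcl1, Cxcl2, Cxcl5 and Cxcl16 fell, 4 of 8 where 4.73% of all genes were called lower. Between metestrus and diestrus no ligand was called by edgeR, where 0.224% of all genes were, while Cxcl15 and Ccl11 had unadjusted p-values under 0.05 and DESeq2 called 1, Cxcl15.

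From diestrus to the next proestrus, Ccl11 was higher in proestrus and Cxcl12 and Cxcl15 were lower, 3 of 8 where 8.53% of all genes were called in either direction. Metestrus against proestrus gave Cxcl15 higher and Ccl11 lower, 2 of 8 where 4.31% of all genes were called. Diestrus against estrus had the most calls, with Cxcl15 higher and Cxcl1, Cxcl2, Cxcl5, Cxcl16 and Ccl11 lower, 6 of 8 where 22.8% of all genes were called. The 6 contrasts share their samples, since each stage enters 3 of them.

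**Figure D3:**
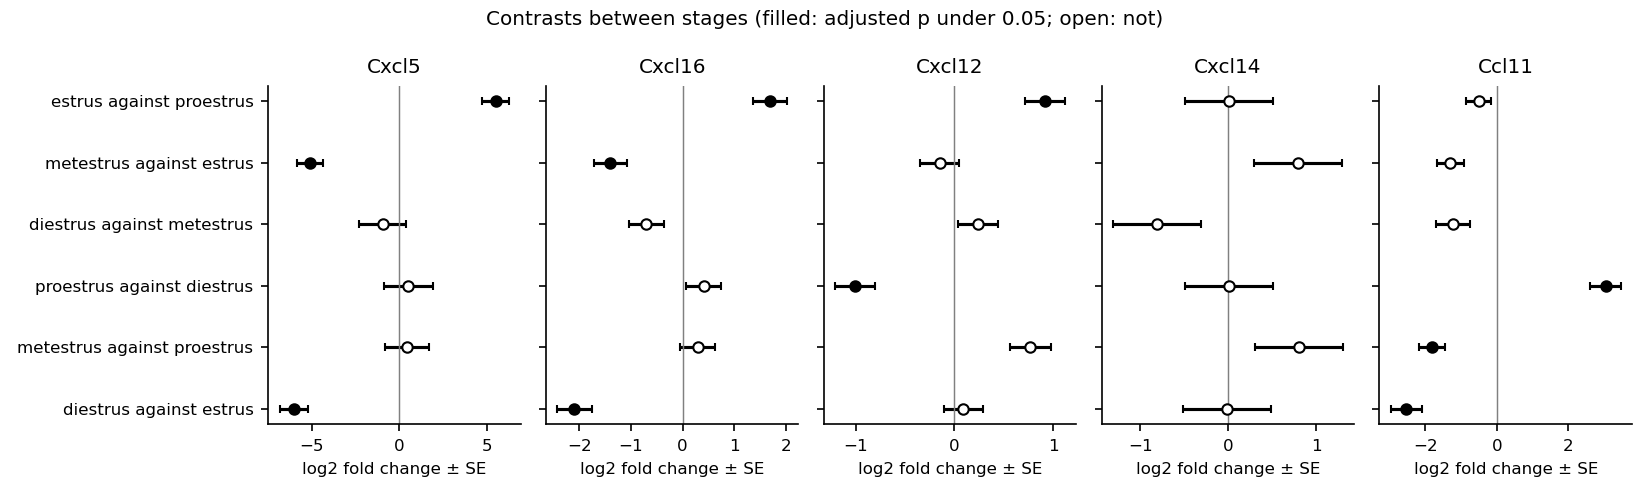
Log2 fold change with its standard error in the 6 contrasts for the 5 tested genes that had counts in every stage, with an axis that differs between panels. Filled points passed the adjusted threshold and open ones did not: Cxcl5 and Cxcl16 are filled in the 3 contrasts with estrus, Cxcl12 in 2 with proestrus, Cxcl14 in none and Ccl11 in 3.

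The receptors of these ligands did not share 1 stage pattern. Of 23 receptor genes, 20 had counts, 10 were tested and 3 were called over the stages, Ccr2, Ackr3 and Cxcr4, a share near the 23.2% of all tested genes. Between proestrus and estrus 1 rose, where 9.67% of all tested genes did, and 1 fell (median 0.56 against 0.02 for all tested genes). Cxcr2, the neutrophil receptor of Cxcl1, Cxcl2 and Cxcl5, was not called (adjusted p = 0.523), with stage means of 8.03, 6.91, 3.80 and 5.24 CPM from proestrus to diestrus. Its estrus uteri ran from 1.37 to 13.2 CPM, the highest being replicate 4, as for the 3 ligands. Cxcr1 was listed at 0 in every library.

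Ccr2, the monocyte receptor of Ccl2 and Ccl7, rose from 34.8, 34.5 and 37.0 CPM in proestrus to 66.8, 77.8 and 92.1 in estrus (1.16 ± 0.22, adjusted p = 0.00437). It stood at 48.8, 47.3 and 89.4 CPM in metestrus and was lower in diestrus at 46.4, 47.0 and 56.6 CPM than in estrus (-0.66 ± 0.22, adjusted p = 0.0419). Ackr3, a receptor that takes up Cxcl12 and clears it, fell from 36.9 ± 12.7 CPM in proestrus to 12.4 ± 1.65 in estrus (-1.57 ± 0.38, adjusted p = 0.013). Its F test (adjusted p = 0.0375) failed in 6 of 12 fits with 1 uterus removed. Cxcr4, the signalling receptor of Cxcl12, was at 3.08 ± 0.922, 7.16 ± 1.38, 7.62 ± 1.69 and 3.83 ± 0.793 CPM from proestrus round to diestrus, and its F test (adjusted p = 0.0495) failed in all 12 such fits. Ackr1, which binds many chemokines on small vessels, was not called (adjusted p = 0.769). Cxcr6, Ccr1, Ccr3 and Ackr2 had too few counts to test, at 44, 47, 38 and 15 counts in all libraries.

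**Figure D4:**
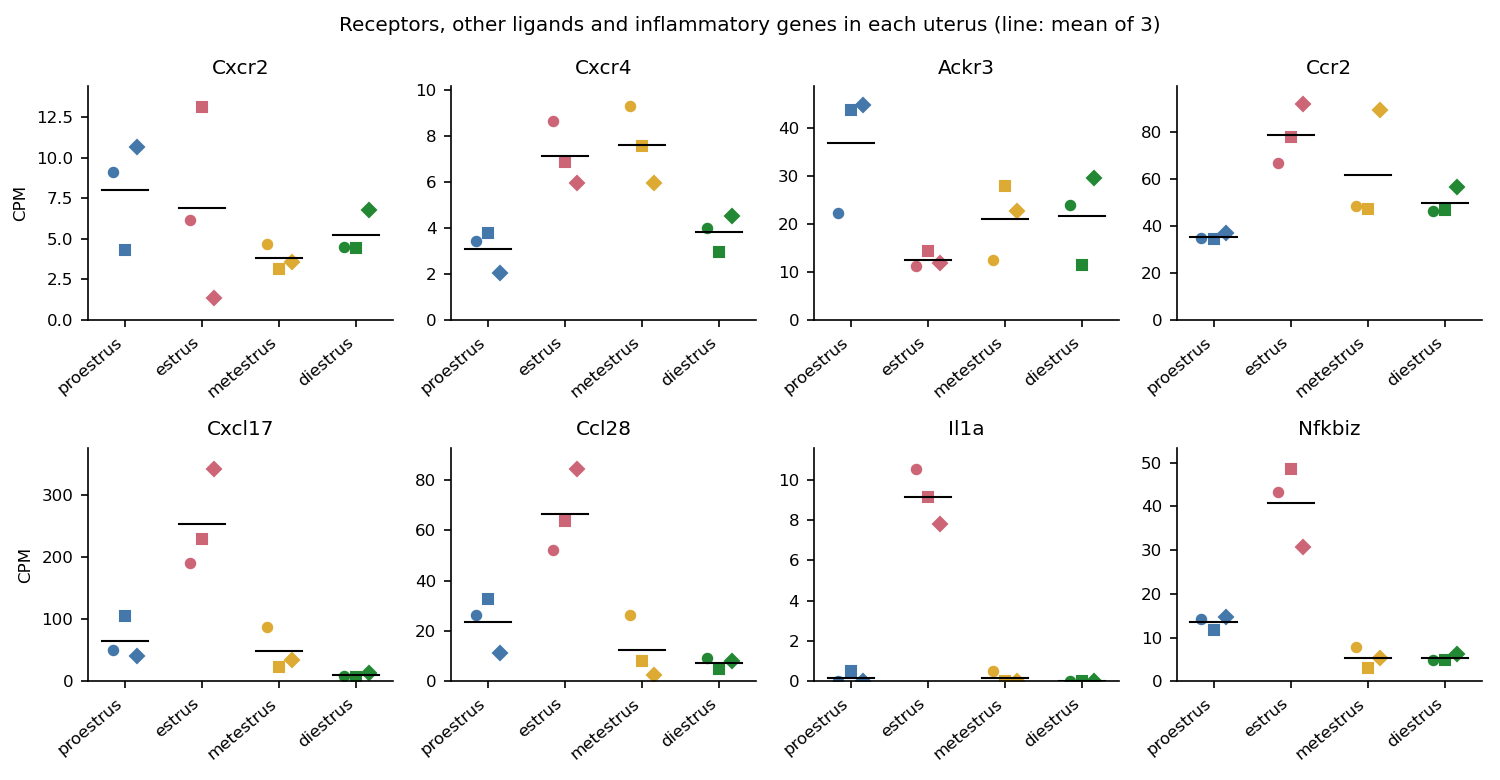
Level in each uterus (CPM, linear axes from 0 that differ between panels, line at the mean of 3) of 4 receptors in the top row and, in the bottom row, of the ligands Cxcl17 and Ccl28, the cytokine Il1a and the NF-kappaB feedback gene Nfkbiz. All 3 estrus points lie above every other point in the panels of the bottom row, and below all 3 proestrus points in that of Ackr3.

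Among 28 other chemokine ligand genes, 24 had counts, 12 were tested and 6 were called over the stages, 4 with their highest level in estrus and 2 in metestrus, where 23.2% of all tested genes were called. From proestrus to estrus 3 rose, where 9.67% of all genes did, and none fell (median 0.71 against 0.02 for all genes). From estrus to diestrus 5 fell (median -1.06 against 0), where 22.8% of all genes were called in either direction. Cxcl17, a mucosal ligand, held 190.5, 229.9 and 341.7 CPM in estrus against 50.2, 104.6 and 41.1 in proestrus (1.96 ± 0.42, adjusted p = 0.00675). In diestrus it was down to 9.97 ± 2.70 CPM, 25.5-fold below estrus (-4.68 ± 0.51). Ccl28, a mucosal ligand of Ccr10 and Ccr3, measured 66.6 ± 16.4 CPM in estrus and 23.4 ± 11.1 in proestrus (1.52 ± 0.48, adjusted p = 0.0445). Ccl9 and Cx3cl1 were the other ligands with an estrus maximum, at 33.9 ± 6.77 and 18.4 ± 6.52 CPM. Ccl21a, at 216.6 ± 47.9 CPM in metestrus and 125.0 ± 35.2 in estrus, and Ccl5, at 12.3 ± 6.91 CPM in metestrus, had theirs in metestrus. The F tests of Ccl5 (adjusted p = 0.0394) and Cx3cl1 (0.0466) each failed in 8 of 12 fits with 1 uterus removed and with counts scaled from TPM. Ccl21a has near-identical copies in the mouse genome, so its level is uncertain.

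Proteases that shed or trim chemokines were also higher in estrus than in proestrus for 4 of 6 genes, where 9.67% of all genes were called higher (median 0.99 against 0.02). Adam10, which cuts Cxcl16 from the membrane, went from 203.7 ± 15.0 to 322.2 ± 35.9 CPM (0.66 ± 0.14, adjusted p = 0.00606). Mmp2, a gelatinase known to cut Cxcl12 and Ccl7, went from 89.5 ± 16.1 to 252.0 ± 21.7 CPM (1.49 ± 0.24) and stayed up, at 315.1 ± 111.6 CPM in metestrus and 244.7 ± 40.1 in diestrus. Mmp9, a gelatinase of neutrophils and macrophages, went from 2.47 ± 0.961 to 13.4 ± 0.980 CPM (2.39 ± 0.50), and Mmp14 rose in that contrast (adjusted p = 0.0347). Mmp9 passed the low-count filter only with its estrus libraries. Mmp14 (F test adjusted p = 0.0755), Adam17 and Dpp4 were not called over the stages.

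The genes listed as inducers or NF-kappaB feedback genes had their maximum in estrus wherever they were called over the stages. Whether they act on the ligands here was not tested. Of 19 inducers and NF-kappaB feedback genes, 16 had counts and 12 were tested. Over the stages 9 were called, all 9 highest in estrus, where 23.2% of all genes were called. Il1a and Tslp, both among the 9, passed the low-count filter only with their estrus libraries. Being tested thus already required high estrus counts of them, and the count of calls is a description. From proestrus to estrus 10 rose, where 9.67% of all genes did (median 1.18 against 0.02). From estrus to metestrus 4 fell, where 4.73% of all genes did. In diestrus 9 were lower than in estrus, where 22.8% of all genes were called in either direction. The F tests of Birc3 (adjusted p = 0.0383) and Nfkb1 (0.0328) failed in 9 and 7 of 12 fits with 1 uterus removed. Il1a, an epithelial alarm cytokine, held 10.5, 9.15 and 7.79 CPM in estrus and at most 0.539 CPM in any other uterus (a ratio to proestrus, with 1 count, of 50.3, counting interval 8.62 to 2020, adjusted p = 0.00188 against proestrus). Nfkbiz, an NF-kappaB cofactor, measured 13.6 ± 1.53, 40.9 ± 9.21, 5.43 ± 2.31 and 5.39 ± 0.729 CPM from proestrus to diestrus (1.57 ± 0.26 from proestrus to estrus). Nfkbia, the inhibitor that NF-kappaB itself induces, measured 196.6 ± 13.8, 299.9 ± 17.9, 143.1 ± 25.2 and 122.1 ± 8.67 CPM. Rel, Icam1 and Tslp were the next 3 by p. Tnf and Il1b had too few counts to test, at 20 and 16 in all, and Il6 was listed at 0.

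Macrophage markers rose at the same stage as Cxcl1, Cxcl2, Cxcl5 and Cxcl16. All 11 were tested, led in level by Lyz2 and C1qb. Of these, 10 were higher in estrus than in proestrus, where 9.67% of all genes were (median 1.37 against 0.02). In diestrus 6 were lower than in estrus, where 22.8% of all genes were called in either direction. The sum of all 11 was 351.9 to 418.9 CPM in proestrus, 926.7 to 1033 in estrus, 510 to 878.7 in metestrus and 510.2 to 710.9 in diestrus. Cd14 had the pattern of the 4 ligands, at 20.4 ± 2.90, 118.5 ± 27.0, 21.9 ± 7.61 and 20.6 ± 2.70 CPM. The summed markers in metestrus and diestrus stayed above every proestrus uterus. Cxcl1, Cxcl2, Cxcl5 and Cxcl16 were not called between proestrus and either of those stages, the counts of Cxcl1, Cxcl2 and Cxcl5 being few there. The part of macrophages in the estrus levels of the ligands was not tested.

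Neutrophil markers were sparse, and their sum did not separate the stages. All 8 had counts, 3 were tested, and no contrast called any of those tested. Among the untested, Ly6g had 16, 1, 5 and 0 counts from proestrus to diestrus, and Csf3r had 1, 14, 13 and 13. Between proestrus and estrus these markers ran in opposite directions, each without overlap of the uteri, so the sum joins markers that differ. S100a9 passed the F test (adjusted p = 0.0458), with 0.877 ± 0.559, 10.7 ± 13.7, 0.818 ± 0.710 and 10.9 ± 8.71 CPM from proestrus to diestrus. Retnlg and S100a9 were the most abundant. The sum of the 8 was 5.70, 7.01 and 23.3 CPM in proestrus, 19.2, 62.3 and 28.4 in estrus, 9.86, 24.0 and 5.37 in metestrus and 47.4, 10.4 and 58.9 in diestrus. Estrus replicate 4, the highest uterus for Cxcl1, Cxcl2 and Cxcl5, also had the highest sum. The next highest sums were in diestrus replicates 5 and 3, where Cxcl1 and Cxcl2 were at 0. The part of neutrophils in the levels of these ligands was not tested.

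Eosinophil markers, set beside Ccl11, were at or near 0. Of 7, 6 had counts, none was tested, and Epx was at 0 in every library, the highest being Ear1 and Siglecf. Their sum ran from 0.507 to 2.28 CPM in proestrus, where Ccl11 was highest, and reached at most 4.58 CPM, in estrus replicate 5. 

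Some markers of other lists also peaked in estrus. Over the stages, 23.2% of all tested genes were called. Among 5 smooth muscle markers, Myh11 and Tagln were called over the stages, at 2.68-fold and 1.96-fold their proestrus level, while Acta2, Cnn1 and Des were not. Among 6 stroma markers, Pdgfra and Dcn were called, Pdgfra being 2.92-fold above proestrus in estrus, while Col1a1 was lower there (-1.07 ± 0.30, adjusted p = 0.028). The 9 immediate early genes summed to 275.3, 471.9 and 374.6 CPM in estrus, the highest value being that of replicate 4, and to 158.6 to 405.1 CPM elsewhere. Of the 8 immediate early genes tested, Junb and Atf3 were called over the stages, a share near that of all tested genes. Jun and Atf3 rose from proestrus to estrus, where 9.67% of all genes did. Endothelium and mesothelium markers gave no call over the stages. The part of these genes in the estrus levels of Cxcl1, Cxcl2, Cxcl5 and Cxcl16 was not tested.

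**Figure D5:**
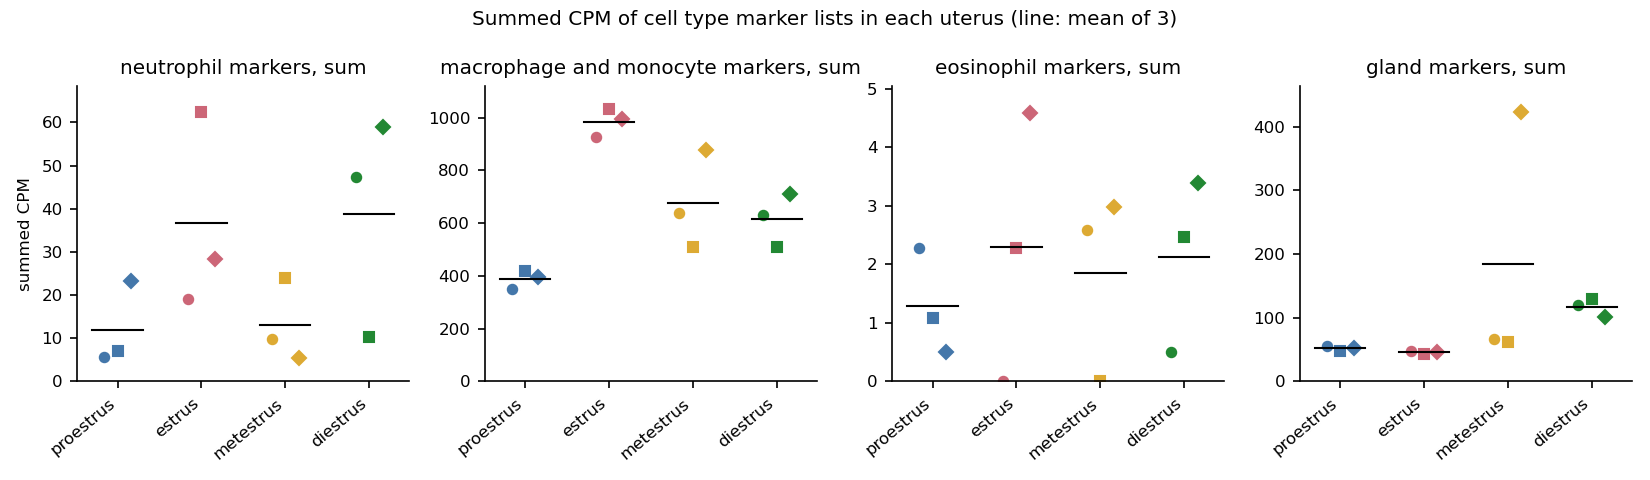
Summed CPM of 8 neutrophil, 11 macrophage and monocyte, 7 eosinophil and 5 gland markers in each uterus (points) with the mean of 3 (line), on linear axes from 0 that differ between panels. The 3 estrus points are the highest in the macrophage panel, the neutrophil points of the stages overlap, and 1 metestrus uterus stands at 422.7 CPM in the gland panel.

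Across the 12 uteri, the estrus ligands varied together. Pearson's r of log2 CPM was 0.98 between Cxcl1 and Cxcl2, 0.96 between Cxcl2 and Cxcl5 and 0.94 between Cxcl1 and Cxcl5, and Cxcl16 had r of 0.87 to 0.88 with the 3. Cxcl15 and Ccl11 ran opposite, with r of -0.79. These values describe 12 points in 4 stages, which share their stage and, for the low genes, many values at 0. By the same measure, the genes most like Cxcl1 were Sprr2d (0.984), Cxcl2 (0.983) and Ero1l (0.965), and those most like Cxcl2 were Cxcl1, Ero1l (0.980) and Il1a (0.978). Cxcl5 was nearest to Cxcl2, Prom1 (0.944) and Cxcl1, and Cxcl16 to Npr1 (0.963), Chd7 (0.963) and Tlr6 (0.962).

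The remaining genes had other neighbours. Cxcl15 was nearest to Gde1 (0.937), Fam69b (0.917) and Clcn5 (0.916), and Ccl11 to Serpinb5 (0.937), Rbm47 (0.935) and Tuba4a (0.924). Cxcl12 was nearest to Erg (0.916), Pcdhgc4 (0.899) and Tpra1 (0.892), and Cxcl14 to Usp50 (0.885), Kif26b (0.871) and Gnal (0.867). These are the 3 highest of 12051 correlations for each gene, and they are descriptions of 12 samples.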

How the data were processed

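Per the labels' protocols, total RNA of each uterus was fragmented and turned into 3' TagSeq libraries, with no mention of molecular identifiers. The counting intervals pool the counts of a stage and treat each count as independent. They leave out repeated copies of a molecule and the spread between uteri, and are too narrow where either is present. Each sample came with a table by the authors of estimated counts, TPM and lengths for 119414 transcripts. The deposited estimated counts were unscaled, and the deposited TPM values were divided by effective length and brought to 1 total in every sample, as the file headers and a sum over each column show. The submitters' processing notes name FastQC, kallisto (version written 0450) and DESeq2 (written 1181). The transcript set and the use of strand were not given in the sources used here.

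Transcripts were matched to GENCODE M21 (GRCm38), which matched 116640; the rest held 0.619% to 0.774% of counts and were left out. Counts were summed per gene, rounded, filtered with filterByExpr by stage and scaled by TMM. 1 quasi-likelihood model with a coefficient per stage was fitted to all 12 samples in edgeR 4.0.16 (R 4.3.3), with an F test and 6 two-sided contrasts, Benjamini-Hochberg over 12052 genes. Standard errors are |log2 fold change| over the square root of F, and log2 CPM used a prior count of 2. Each p-value sets a difference between stages against the spread between uteri within stages. In the main fit that spread was estimated over all 4 stages together and moderated across genes. The script was tested on simulated data.

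The 10 genes and all lists were chosen with earlier results of these data known. Named genes are all 10, the receptors of their ligands, up to 6 genes by F test p from each pathway list, the 2 most abundant markers of a cell type list and the 3 genes most correlated with each of the 10. Genes named outside this rule were chosen after their values were seen. They are Tnf, Il1b, Il6, Mmp14, Adam17, Dpp4, Cd14, Sox17, Foxa2, Prss28, Lif, Epx, Ly6g, Csf3r, Ovgp1, Foxj1, Birc3 and Nfkb1. Those of the smooth muscle, stroma and immediate early lists were chosen likewise. Alternatives were other scaling, DESeq2 1.42.0, no filter, counts scaled from TPM, fits of 2 stages, a replicate block, leaving out each uterus and, added after seeing the data, protein-coding transcripts only.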

Additional observations from a re-analysis of the deposited data

How the results depend on the processing

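The numbers of ligand genes called over the stages (7), in estrus against proestrus (5), metestrus against estrus (4), proestrus against diestrus (3) and diestrus against estrus (6) stayed within 1.5 times under every alternative run. Diestrus against metestrus gave 0 called, 1 with DESeq2 and 1 without the low-count filter, and 0 to 1 when 1 uterus was left out (1 without metestrus replicate 6). Metestrus against proestrus gave 2, then 1 with counts scaled from TPM, 0 in a fit of the 2 stages alone and 3 with DESeq2's size factors, in DESeq2 or without the low-count filter, each of which added Cxcl12, and 0 to 3 when 1 uterus was left out (0 without any 1 of the proestrus uteri, 1 without estrus replicate 4, 3 without metestrus replicate 5). The cause was not tested. Of the 20 called gene contrasts, 17 kept the call in all 12 fits without 1 uterus, 4 lost it in at least 1 other setting and 0 reversed.

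Estrus and diestrus share replicate numbers, and what the numbers stand for was not given in the sources used here. Deviations of same-numbered uteri from their stage means correlated at -0.043, 0.013 and -0.017, and those of differently numbered uteri at -0.03 to 0.044. Values this near 0 cannot decide whether the numbers link uteri. With the number as a replicate block in those 6 samples, diestrus against estrus again gave 6 ligand genes, and 2935 genes in all against 3242 without the block. No paired analysis was possible for the other contrasts because those stages share at most 1 number. Levels under about 3 counts per library cannot be told from 0 at this depth.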
